A study of Sus scrofa domesticus with 11 samples.

Results

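Collagen chain genes were taken as the rows of the deposited liver table whose gene symbol is COL, a type number, A and a chain number. The table holds 39 of them among 22029 genes: 10 fibrillar chains, 5 type IV chains of basement membranes, 5 type VI chains and 19 others. The test kept 27 of the 39 after a filter on low counts, beside 13671 genes in all. COL4A1 and COL24A1 carry no symbol in the table and were named by identifier from a reference list, so they are not among the 39, and their values are given where a partner chain needs them.

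RNA came from the livers of Yorkshire piglets that were born preterm, received parenteral nutrition (feeding by vein) and were sacrificed on day of life 15. A group of 5 was given the code-named compound SEFA-6179 at 48 mg/kg. The control group of 6 was given the same volume of vehicle, labelled MCT (medium-chain triglyceride), at 3 ml/kg. Every animal in both groups was preterm and on parenteral nutrition, so the MCT livers are a vehicle control and not healthy term livers. The sources used here give no route, sex, litter or sequencing batch, and each library was treated as 1 piglet because the design text refers to animals.

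Library depth was between 15974977 and 23416071 counts. ALB, the albumin gene of hepatocytes, was at 33175 to 126439 CPM in every library, where CPM is the count divided by the TMM-scaled library size (trimmed mean of M values), times 1e6. MCT replicate 5 and SEFA-6179 replicate 4 stood apart in the macrophage gene C1QA, a complement subunit, at 35.9 and 15.1 CPM against 103 to 565 CPM in the other libraries. Results that lead the comparison are therefore also given without these libraries.

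Each collagen molecule is built from alpha chains that wind around one another into a helix, and many types need chains from more than 1 gene. Types I, III and V form the fibrils of portal tracts and of the scar that activated stellate cells and portal fibroblasts lay down, type IV forms the sheet under bile ducts and vessels, and type VI forms beaded filaments around cells. Type XVIII, a heparan sulfate proteoglycan whose end is cut off as endostatin, is made in liver largely by hepatocytes.

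The collagen transcript at the highest level was COL18A1, followed by COL3A1 and then by the type I chains and COL4A2. These levels are the deposited FPKM values, which divide a gene's reads by its length so that genes can be compared. In MCT livers COL18A1 was at 181 ± 41.7 FPKM (SD, n = 6), COL3A1 at 66.8 ± 8.20, COL1A1 at 27.4 ± 8.92, COL4A2 at 26.5 ± 2.41 and COL1A2 at 25.9 ± 7.83. COL18A1 lay above COL3A1, and COL3A1 above COL1A1, by more than the sum of their SDs and in 6 of 6 MCT livers. COL1A1, COL4A2 and COL1A2 did not differ from their neighbours in this order beyond that spread.

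Below them, COL6A2 at 11.7 ± 2.41 FPKM (SD, n = 6) was separated from COL1A2 by more than the spread. The chains from COL6A2 to COL5A2 then followed one another with overlapping spreads: COL6A1 was at 7.67 ± 2.16 FPKM, COL5A1 at 6.41 ± 1.00, COL14A1 at 5.31 ± 0.496 and COL5A2 at 4.94 ± 0.502. COL6A2 and COL6A1 had mean counts of 592 and 594 on deposited lengths of 2952 and 4322 bases, so their order depends on those lengths. COL6A3 at 2.87 ± 0.487 and COL16A1 at 1.56 ± 0.236 FPKM were each below the gene before them by more than the summed SDs. In the SEFA-6179 livers COL18A1 was at 187 ± 35.6 FPKM and COL3A1 at 50.3 ± 8.80 (SD, n = 5). COL4A1, outside the 39, was listed at 50.8 ± 5.23 FPKM in MCT livers on a deposited length of 2651 bases, beside 6475 bases for COL4A2. That length does not hold a whole type IV transcript, so its place among the levels was not read.

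**Figure D1:**
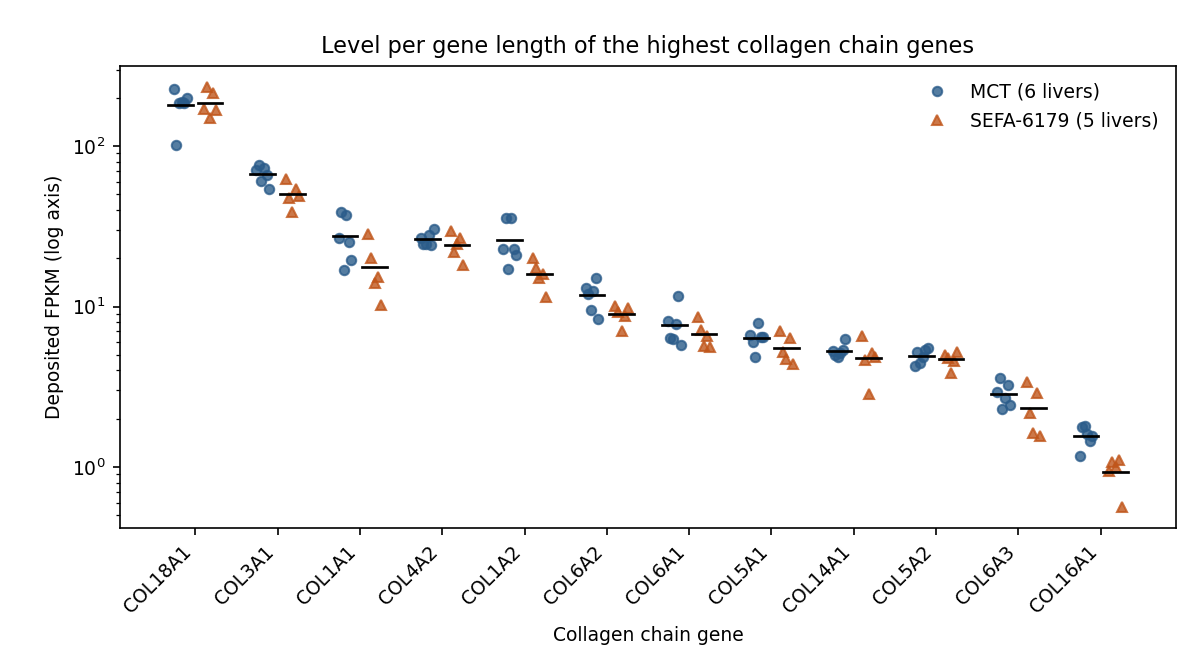
Deposited FPKM on a log axis for the 12 collagen chain genes at the highest level, 1 point per liver (circles MCT, triangles SEFA-6179) and a bar at each group mean. COL18A1 stands above the rest at 181 FPKM in MCT, and the 5 SEFA-6179 points of COL16A1 lie under its 6 MCT points.

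COL18A1 alone took between 44.6% and 73.3% of all collagen counts of a library. The 39 genes together held 0.273 ± 0.0374% of the counts in SEFA-6179 livers (SD, n = 5) and 0.314 ± 0.0448% in MCT livers (SD, n = 6). Without COL18A1 the share was 0.0865 ± 0.0189% against 0.118 ± 0.0107%, a ratio of 0.731. COL18A1 itself was at 0.187 ± 0.0287% and 0.196 ± 0.0493%, so it made up most of each total, while the group means differed more in the other chains. Shares here are of raw library totals, without the TMM scaling of CPM. On the scaled counts the log2 fold change of COL18A1 was 0.05.

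COL1A1, COL1A2 and COL3A1, the chains of the major fibrils, together made up 0.0457 ± 0.0114% of counts with SEFA-6179 and 0.0690 ± 0.0113% with MCT, a ratio of 0.662. By library the SEFA-6179 shares were 0.0653% (Wilson 95% interval 0.0641 to 0.0665), 0.0438% (0.0429 to 0.0448), 0.0384% (0.0376 to 0.0393), 0.0441% (0.0431 to 0.0450) and 0.0369% (0.0360 to 0.0378) in replicates 1 to 5, and those of MCT ran from 0.0572% (0.0560 to 0.0584) to 0.0835% (0.0823 to 0.0846). SEFA-6179 replicate 1 lay within the MCT range and the other 4 lay below all 6 MCT livers. These intervals cover counting error only, and reads without molecular identifiers are not independent molecules.

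No collagen chain gene passed the test between SEFA-6179 and MCT. With edgeR (quasi-likelihood F test, Benjamini-Hochberg adjustment over all tested genes), 0 of 27 had an adjusted p below 0.05, beside 0.219% of all tested genes in either direction and 0.102% lower in SEFA-6179. At an unadjusted p below 0.05 there were 7 of 27, all lower in SEFA-6179, where 5.52% of all tested genes were lower and 5.24% higher at that level. They were COL1A1, COL1A2, COL3A1, COL6A2, COL8A1, COL16A1 and COL17A1. DESeq2 called 2, COL8A1 and COL16A1, both lower, beside 2.06% of its tested genes in either direction and 1.13% lower, and limma with library weights called 0, beside 0.454% in either direction and 0.227% lower.

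Lower values in SEFA-6179 were more common than higher ones among the 27 but small in most. The log2 fold change (SEFA-6179 over MCT) was below 0 in 20 of 27 and in 50.2% of all tested genes, and its median was -0.18, beside -0.0015 over all tested genes. The 7 fibrillar chains tested had 5 below 0 and a median of -0.20, the 5 type IV chains 4 and -0.13, the 5 type VI chains 4 and -0.30, and the 10 others 7 and -0.16. Among the 16 genes with a mean count of at least 100, 13 were below 0 and the median was -0.23. COL16A1 was the 1 member whose groups did not overlap, where 0.819% of tested genes were lower and 0.673% higher without overlap. In bulk RNA, fewer cells of a type and less RNA per cell cannot be told apart.

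Without MCT replicate 5 and SEFA-6179 replicate 4, 0 collagen chain genes were called, 20 of 27 were below 0 and the median was -0.25. Leaving out SEFA-6179 replicate 1 moved the median to -0.29. In that animal COL1A1, COL1A2, COL3A1 and COL6A3 were each at their highest level among the SEFA-6179 livers.

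**Figure D2:**
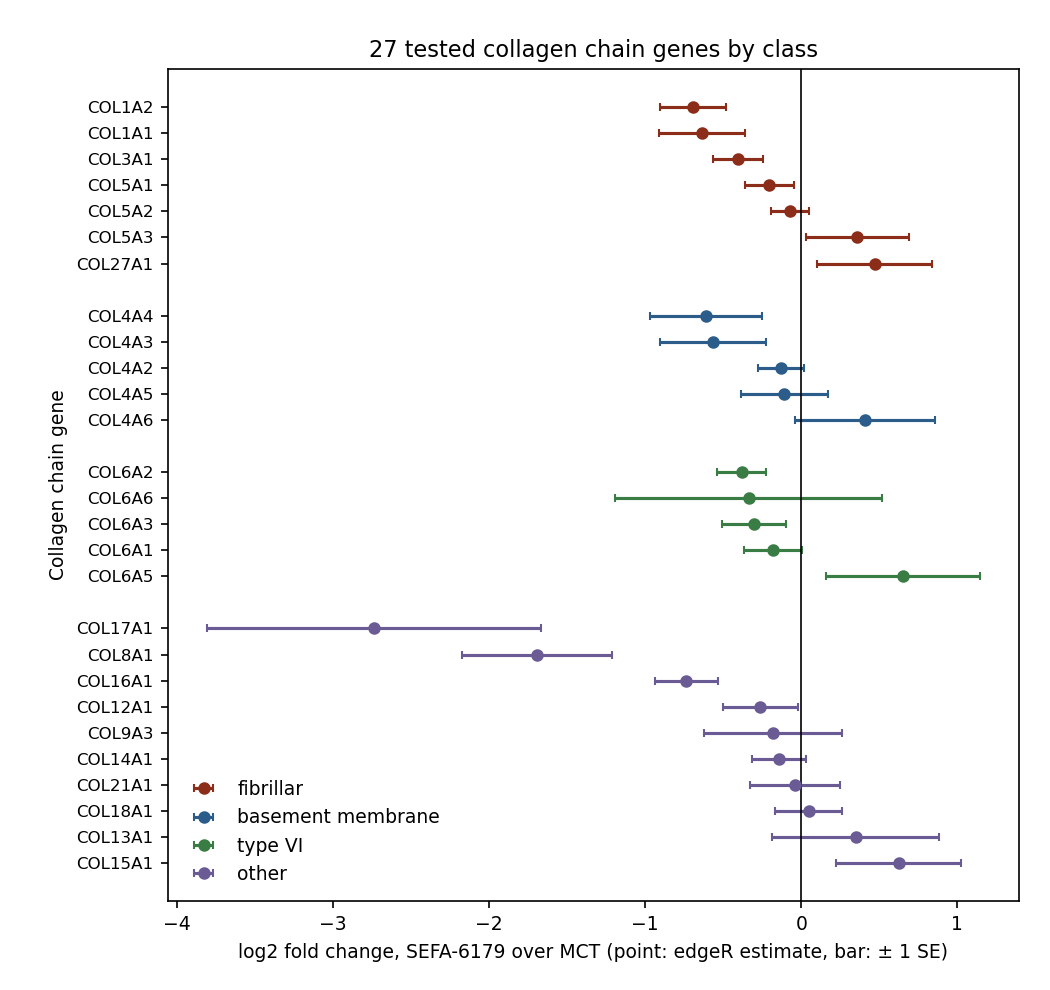
edgeR log2 fold changes of the 27 tested collagen chain genes, SEFA-6179 over MCT, grouped by class (points, with bars of 1 SE). Points left of 0, which 20 of the 27 are, stand for a lower fitted level in SEFA-6179, and the widest bar belongs to COL17A1.

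Among the fibrillar genes the major type I and type III chains had the lowest log2 fold changes. COL1A1 encodes the alpha chain that type I collagen holds in excess, and it lies on chromosome 12 from 26379090 to 26397003. Coordinates here are those of the deposited table, whose genome build the sources used here do not give. COL1A1 was at 164, 118, 82.1, 88.6 and 59.6 CPM in SEFA-6179 replicates 1 to 5, and at 98.5, 149.8 and 225 CPM as the lowest, median and highest MCT liver. SEFA-6179 replicate 1 lay above the MCT median, replicates 3, 4 and 5 lay below all MCT livers, and MCT replicates 2 and 4 lay above all SEFA-6179 livers. The means were 102 ± 40.1 (SD, n = 5) and 159 ± 51.9 CPM (SD, n = 6). Its log2 fold change was -0.64 ± 0.27 (SE), with an edgeR adjusted p of 0.410.

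COL1A2, the partner chain of type I collagen on chromosome 9 (74173931 to 74210398), had a tighter spread. It stood at 104, 92.0, 78.5, 84.2 and 59.8 CPM in SEFA-6179 replicates 1 to 5, while the MCT livers ran from 90.8 through a median of 119 to 187 CPM. All SEFA-6179 livers were below the MCT median, and 5 of 6 MCT livers were above every SEFA-6179 liver, MCT replicate 3 being the exception. The means of 83.8 ± 16.6 (SD, n = 5) and 135 ± 41.1 CPM (SD, n = 6) gave a log2 fold change of -0.69 ± 0.21 and an adjusted p of 0.225 by edgeR. In the authors' deposited table its adjusted p was 0.0896.

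COL3A1, which encodes the sole chain of type III collagen, lies on chromosome 15 (93556912 to 93615815). It was at 355, 269.6, 221, 307 and 277 CPM with SEFA-6179 and at 310.1, 385 and 435 CPM as lowest, median and highest with MCT. SEFA-6179 replicates 2 to 5 were below all MCT livers, and replicate 1 lay inside the MCT range. The log2 fold change was -0.41 ± 0.16, from means of 286 ± 49.4 (SD, n = 5) and 379 ± 45.9 CPM (SD, n = 6), with an adjusted p of 0.355 by edgeR.

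The type V chains, which seed and thin fibrils, were closer between the groups. COL5A1 was at 46.5 ± 9.24 CPM with SEFA-6179 and 53.6 ± 8.26 with MCT, and its log2 fold change was -0.20 ± 0.16. COL5A2 was at 32.9 ± 3.54 and 34.6 ± 3.54 CPM, a log2 fold change of -0.07 ± 0.12. COL5A3, the least abundant of the 3, was at 8.32 ± 3.24 and 6.50 ± 2.98 CPM, with a log2 fold change of 0.36 ± 0.33. COL27A1, a fibrillar chain of cartilage, was at 8.55 ± 5.87 and 6.16 ± 2.06 CPM (0.47 ± 0.37), with SEFA-6179 replicate 2 alone at 18.4 CPM. Without that library its log2 fold change was the only fibrillar one to change sign under any setting, at -0.02.

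COL3A1 and COL5A2 lie on opposite strands of chromosome 15 and share 3960 bases at their ends. The sources used here do not give the strand setting of the authors' counting, so reads in that stretch cannot be assigned to one or the other. COL3A1 had a mean count of 6412 and COL5A2 of 634. COL24A1, a minor fibrillar chain outside the 39, had a mean count of 13.4 and a log2 fold change of -0.91 ± 0.83.

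**Figure D3:**
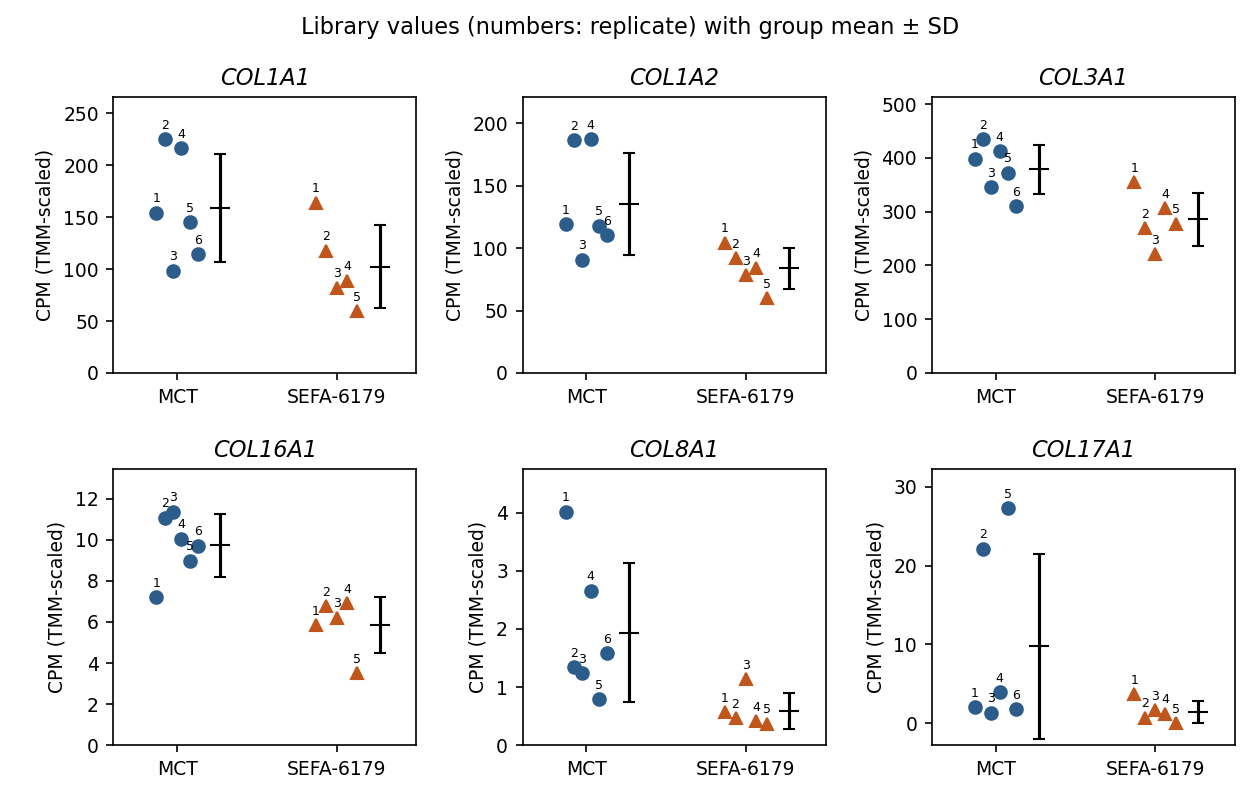
CPM of 6 collagen chain genes in each liver (numbers are replicates), with the group mean and SD beside the points. COL16A1 separates the groups, the 5 SEFA-6179 livers of COL1A2 lie under the MCT median, and the MCT mean of COL17A1 rests on replicates 2 and 5 at 22.1 and 27.3 CPM.

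Type IV chains did not differ between the groups by the test, and the values of their main liver pair were close. COL4A2, which with COL4A1 builds the common network of basement membranes, lies on chromosome 11 (76997516 to 77161615). It stood at 193, 144, 159.8, 176 and 119 CPM in SEFA-6179 replicates 1 to 5, against 157, 168 and 199.7 CPM as lowest, median and highest with MCT. The ranges overlapped in most livers, with SEFA-6179 replicates 2 and 5 below all MCT livers. The log2 fold change was -0.13 ± 0.15, with an adjusted p of 0.803 by edgeR.

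COL4A1, its partner on the same chromosome (76858296 to 76888850), was at 138, 103, 119, 118 and 109 CPM with SEFA-6179 and at 111, 138 and 151 CPM as lowest, median and highest with MCT. SEFA-6179 replicates 2 and 5 were again below all MCT livers. Its log2 fold change was -0.21 ± 0.13, with an edgeR adjusted p of 0.588. The pair is known to share a promoter region in a head-to-head arrangement, while the deposited models of COL4A1 and COL4A2 leave 108665 bases between them.

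The remaining type IV chains are minor in liver and are best known from kidney, where COL4A3, COL4A4 and COL4A5 form 1 network. COL4A5, on X, was at 5.79, 5.03, 3.72, 2.80 and 4.07 CPM with SEFA-6179 and at 2.75, 3.88 and 6.73 CPM (lowest, median, highest) with MCT, and the SEFA-6179 range lay inside that of MCT. Its log2 fold change of -0.11 ± 0.28 changed sign in 5 of 19 alternative settings. COL4A6, its neighbour 1422 bases away on X, was at 4.66, 6.41, 5.89, 1.55 and 3.51 CPM with SEFA-6179 and at 0.674, 3.64 and 5.74 CPM with MCT. The groups overlapped, with a log2 fold change of 0.41 ± 0.45.

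COL4A3 was at 1.08, 1.10, 1.40, 0.714 and 1.23 CPM in SEFA-6179 replicates 1 to 5, beside 0.899, 1.54 and 2.60 CPM as lowest, median and highest MCT liver. COL4A4 was at 1.31, 1.44, 1.09, 1.25 and 0.862 CPM, beside 0.761, 2.07 and 2.53 CPM. In each of the 2 genes 4 of 6 MCT livers lay above every SEFA-6179 liver. The log2 fold changes were -0.56 ± 0.34 for COL4A3 and -0.61 ± 0.36 for COL4A4, with edgeR adjusted p of 0.579 and 0.568. These genes start head to head on chromosome 15 and overlap by 514 bases, and their mean counts of 27.1 and 29.7 leave wide counting error.

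Type VI collagen is assembled from 1 chain each of COL6A1, COL6A2 and COL6A3, and the levels of all were lower by value in SEFA-6179. COL6A2, listed on the unplaced scaffold AEMK02000328.1, was at 29.9, 27.8, 21.1, 26.0 and 29.2 CPM with SEFA-6179 and at 25.1, 36.6 and 44.2 CPM as lowest, median and highest with MCT. Of the 6 MCT livers 4 lay above all SEFA-6179 livers. The means of 26.8 ± 3.50 (SD, n = 5) and 34.9 ± 6.97 CPM (SD, n = 6) gave a log2 fold change of -0.38 ± 0.16 and an edgeR adjusted p of 0.385.

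COL6A1, on chromosome 13 (208295240 to 208313127), was at 37.6, 31.6, 24.8, 28.6 and 24.6 CPM with SEFA-6179 and at 25.3, 31.0 and 50.5 CPM with MCT, with a log2 fold change of -0.18 ± 0.19. Its groups overlapped except for MCT replicate 5 at the top and 2 SEFA-6179 livers at the bottom. COL6A3, on chromosome 15 (137011433 to 137103709), was at 39.9, 25.8, 19.3, 34.5 and 18.7 CPM, beside 27.6, 33.4 and 42.6 CPM. SEFA-6179 replicates 2, 3 and 5 lay below all MCT livers, and replicates 1 and 4 above the MCT median. The log2 fold change was -0.30 ± 0.20 with an edgeR adjusted p of 0.634.

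COL6A5 and COL6A6 encode chains that can take the place of COL6A3, and both were scarce. COL6A5, on chromosome 13 (2029946 to 2174384), had the highest log2 fold change of all tested collagen chain genes, 0.65 ± 0.49, with an edgeR adjusted p of 0.682. It was at 1.02, 1.73, 0.310, 0.953 and 1.54 CPM with SEFA-6179 and at 0.168, 0.727 and 1.17 CPM as lowest, median and highest with MCT. SEFA-6179 replicates 2 and 5 thus stood above the MCT range and replicate 3 below its median. COL6A6 reached 2.48 CPM in SEFA-6179 replicate 2, with the others of that group at 0.0568 to 0.246 CPM. Its log2 fold change was -0.34 ± 0.85 (edgeR adjusted p of 0.920), and it rested on single livers: it was -2.18 (adjusted p of 0.358) when SEFA-6179 replicate 2 was left out and 0.17 when MCT replicate 1 was.

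Outside these classes, the multiplexin COL18A1 was the most abundant collagen chain gene and its level was close in both groups. It lies on chromosome 13 (207907857 to 207985181) and was at 1768, 2450.5, 1554, 2242 and 1742 CPM with SEFA-6179, beside 1069, 1958 and 2340 CPM as lowest, median and highest with MCT. MCT replicate 2, at 1069 CPM, was the lowest of the 11, and the other 5 MCT livers were at 1906 to 2340 CPM. The log2 fold change was 0.05 ± 0.21, and it was -0.07 without MCT replicate 2. An interval of 1 SE on either side spans both signs, which does not show that the levels were equal. COL15A1, the other multiplexin, was at 2.67 ± 1.59 and 1.73 ± 0.680 CPM, with a log2 fold change of 0.62 ± 0.40.

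The FACIT collagens, which sit on the surface of fibrils, differed among themselves. COL16A1, on chromosome 6 (88177831 to 88242747), was at 5.85, 6.76, 6.20, 6.91 and 3.51 CPM with SEFA-6179 and at 7.20, 9.88 and 11.4 CPM as lowest, median and highest with MCT. Every SEFA-6179 liver lay below every MCT liver, the closest pair being SEFA-6179 replicate 4 at 6.91 CPM and MCT replicate 1 at 7.20 CPM. The means of 5.85 ± 1.37 (SD, n = 5) and 9.73 ± 1.52 CPM (SD, n = 6) gave a 1.66-fold lower level, a log2 fold change of -0.73 ± 0.20.

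For COL16A1 the tests disagreed on the call. Its adjusted p was 0.172 by edgeR, 0.0286 by DESeq2 and 0.108 by limma, and it was 0.0389 in the authors' deposited table. There, 1.16% of genes with a p-value were called in either direction and 0.632% as lower. Its log2 fold change ran from -0.82 to -0.60 over 19 alternative settings, and only DESeq2 called it.

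COL14A1, a FACIT chain known from fibroblasts of portal tracts, was at 56.4, 40.1, 24.6, 44.2 and 41.9 CPM with SEFA-6179 and at 42.2, 44.8 and 54.2 CPM with MCT. SEFA-6179 held both the highest and the lowest value, and the log2 fold change was -0.14 ± 0.17. COL14A1 overlaps DEPTOR on the same strand by 152098 bases. COL12A1 was at 9.34 ± 3.13 and 11.2 ± 2.64 CPM (-0.26 ± 0.24) and COL21A1 at 3.68 ± 1.12 and 3.79 ± 1.32 CPM (-0.04 ± 0.29).

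COL9A3, a chain of cartilage type IX collagen, was at 1.59 ± 0.565 CPM with SEFA-6179 and 1.80 ± 1.12 with MCT, a log2 fold change of -0.18 ± 0.44. Its gene lies within the span of GID8 on the same strand for 18416 bases and overlaps TCFL5 on the opposite strand. GID8 had a mean count of 1061 and COL9A3 of 32.1, and reads of the shared stretch cannot be told apart here, so the COL9A3 value is uncertain.

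COL8A1, a short-chain network collagen that vascular smooth muscle and endothelium are known to make, had the second lowest log2 fold change. On chromosome 13 (159216138 to 159374504), it stood at 0.568, 0.462, 1.14, 0.417 and 0.370 CPM in SEFA-6179 replicates 1 to 5 and at 0.786, 1.46 and 4.02 CPM as lowest, median and highest in MCT. SEFA-6179 replicate 3 alone reached into the MCT range, and 5 of 6 MCT livers lay above all SEFA-6179 livers. Its means were 0.591 ± 0.314 (SD, n = 5) and 1.94 ± 1.195 CPM (SD, n = 6). The fitted log2 fold change was -1.69 ± 0.48 on 6 to 81 counts a library.

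As for COL16A1, the call for COL8A1 depended on the tool. The adjusted p was 0.194 by edgeR, 0.0340 by DESeq2 and 0.131 by limma, with 0.0351 in the authors' deposited table. Its log2 fold change was between -2.08 and -1.34 over 18 alternative settings, the smaller size without MCT replicate 1, the liver at 4.02 CPM. COL8A2, its partner chain, had 0 to 10 counts and was not tested.

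COL17A1, a transmembrane collagen of hemidesmosomes, which anchor epithelia to their basement membrane, had the lowest log2 fold change of the 27, -2.74 ± 1.07. It lies on chromosome 14 (114959408 to 115064783) and was at 3.69, 0.693, 1.65, 1.19 and 0 CPM in SEFA-6179 replicates 1 to 5 and at 1.34, 2.96 and 27.3 CPM as lowest, median and highest in MCT. MCT replicates 2 and 5, at 22.1 and 27.3 CPM, stood far above the other 4 MCT livers, which were at 1.34 to 3.93 CPM and overlapped with the SEFA-6179 livers. The edgeR adjusted p was 0.371, and the value rested on few livers. The log2 fold change was -2.31 without MCT replicate 2 and -2.10 without MCT replicate 5, each time with the other high library kept, and -3.44 without SEFA-6179 replicate 1.

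The MCT livers with high COL17A1 were also the MCT livers where EIF1AY, known as a Y-linked gene, was at 0. EIF1AY was at 0 as well in SEFA-6179 replicates 2, 3 and 5, where COL17A1 was at 0.693, 1.65 and 0 CPM, and at 19.2 to 24.5 CPM in the other 6 libraries. With EIF1AY as a covariate the log2 fold change of COL17A1 was -2.14 and its edgeR adjusted p 0.524. Other epithelial genes, chosen after their values were seen, differed in whether they singled out the same livers, and a link to COL17A1 was not tested. EPCAM, a bile duct marker, was at 27.6 and 44.6 CPM in MCT replicates 2 and 5, and at 6.53 to 18.6 CPM elsewhere. SOX9, another such marker, was at 8.09 and 8.76 CPM there, and at 1.27 to 7.15 CPM elsewhere. The next 2 genes did not single them out. ITGB4, the hemidesmosome integrin, was at 2.90 and 6.40 CPM in MCT replicates 2 and 5, within the 2.62 to 6.70 CPM of the other libraries, and TP63, a basal epithelial factor, was at 9.18 and 5.73 CPM, within 1.81 to 10.8.

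COL13A1, another transmembrane chain, had a mean count of 11.9, a log2 fold change of 0.35 ± 0.54 and an overlap of 155161 bases with an unnamed gene on the same strand.

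The 12 members that did not pass the filter on low counts were mostly collagens of cartilage, eye and nerve. COL2A1, the cartilage fibril chain, had 0 to 3 counts a library and COL10A1, of growth plate cartilage, 0 to 2. COL11A1 had 0 to 22 counts, COL23A1 2 to 17, COL28A1 0 to 21, COL9A1 0 to 9, COL19A1 0 to 6, COL25A1 0 to 5, COL26A1 0 to 3 and COL22A1 0 to 2. COL11A2, a partner of COL11A1 in cartilage, reached 116 counts: SEFA-6179 replicate 5 was at 7.15 CPM, MCT replicate 6 at 6.09 CPM, and the other 9 livers were at 0 to 0.672 CPM. At these depths a difference between the groups was not detectable for the members with a few counts.

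The ratio between a pair of chains does not depend on how a library is scaled. Of the 6 ratios compared, that of COL3A1 to COL1A1 sets chains of different molecules side by side, and the others are between chains of the same collagen type. COL1A1 to COL1A2 was 1.19 ± 0.240 with SEFA-6179 (SD, n = 5) and 1.17 ± 0.0955 with MCT (SD, n = 6), a difference of 0.01 in mean log2 ratio (two-sided exact permutation p = 0.926). By library it was 1.57, 1.28, 1.05, 1.05 and 0.998 in SEFA-6179 replicates 1 to 5 and 1.04 to 1.29 in MCT. SEFA-6179 therefore held both the highest and the lowest ratio.

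COL3A1 to COL1A1 was 3.05 ± 1.03 and 2.53 ± 0.589 (exact permutation p = 0.355), with 4.65 in SEFA-6179 replicate 5 as the highest. COL6A1 to COL6A2 was 1.10 ± 0.157 and 0.955 ± 0.120, which gave the smallest exact permutation p of the 6, 0.117. COL4A1 to COL4A2 was 0.752 ± 0.0941 and 0.786 ± 0.0608, COL5A1 to COL5A2 1.42 ± 0.273 and 1.56 ± 0.279, and COL6A3 to COL6A1 0.924 ± 0.198 and 1.06 ± 0.258. Adjusted over the 6 ratios, the exact permutation p ran from 0.545 to 0.926, where the smallest p that 5 against 6 livers can reach is 0.0043.

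Across the 11 livers the levels of 5 pairs of chains were compared. COL1A1 and COL1A2 had a Pearson r of 0.953 (permutation p = 2e-05, adjusted 1e-04 over 5 pairs, near the smallest that 100000 resamples can give) and a Spearman rho of 0.918 (permutation p = 0.00019). COL1A1 and COL3A1 had r = 0.815 and rho = 0.855, with adjusted permutation p of 0.0068 and 0.00417. For COL4A1 with COL4A2 r was 0.757 and rho 0.80, and for COL6A1 with COL6A2 r was 0.756 and rho 0.70, with adjusted permutation p from 0.00717 to 0.0255.

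COL1A1 and COL4A1, from different networks, had r = 0.689 (adjusted permutation p = 0.0207) and rho = 0.591 (adjusted permutation p = 0.0601). Without the 2 livers farthest from the median of the first gene, r over the 5 pairs, in the order given, was 0.906, 0.794, 0.625, 0.725 and 0.621. With each group centred on its own mean, a step added after the data were seen, r was 0.942, 0.706, 0.723, 0.776 and 0.526. Differences between these correlations were not tested. The points share library depth and tissue composition.

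**Figure D4:**
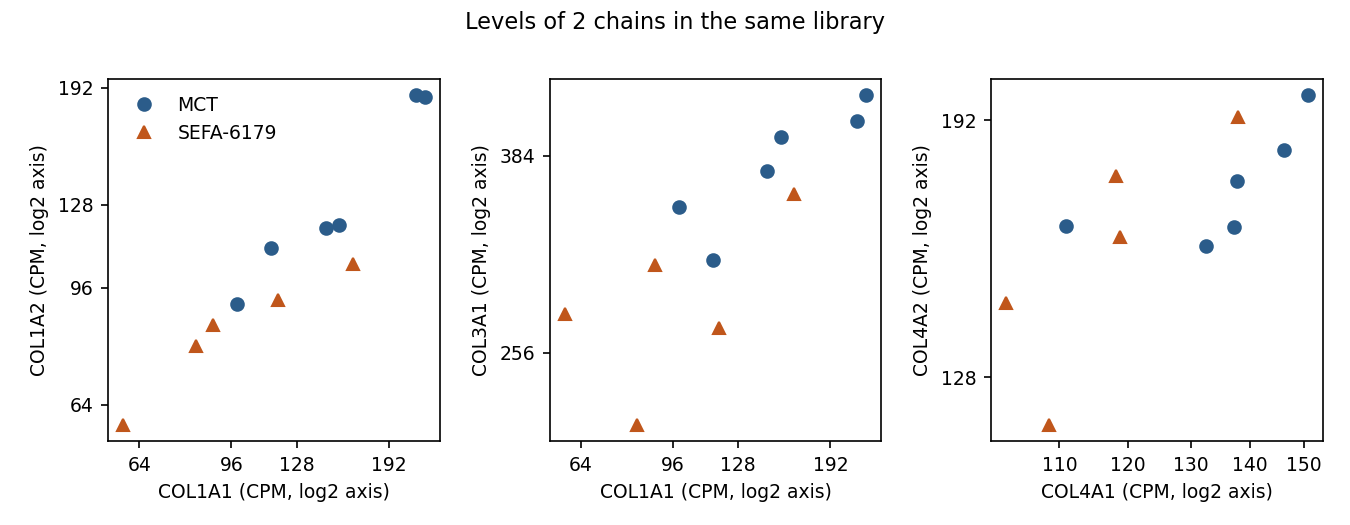
CPM of 2 chains plotted against each other, 1 point per liver, on log2 axes, for COL1A1 with COL1A2, COL1A1 with COL3A1 and COL4A1 with COL4A2. The type I pair lies close to a line (r = 0.953), with MCT circles and SEFA-6179 triangles along the same trend, and the type IV pair is more scattered (r = 0.757).

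Genes that fold collagen had values on both sides of 0. Of 20 tested genes of folding and hydroxylation 9 were below 0 and 11 above, with a median log2 fold change of 0.02. Of these edgeR called 0, beside 0.219% of all tested genes in either direction. P4HA1, the catalytic subunit of the prolyl hydroxylase that stabilises the helix, was at 108, 154, 130.2, 73.5 and 113 CPM in SEFA-6179 replicates 1 to 5 and at 57.1 to 82.0 CPM in MCT. Of the 5 SEFA-6179 livers 4 lay above all MCT livers, and replicate 4 lay among them. The means of 116 ± 29.6 and 67.7 ± 10.4 CPM gave a log2 fold change of 0.77 ± 0.18, with an adjusted p of 0.106 by edgeR and 0.00761 by DESeq2. Without SEFA-6179 replicate 4 the edgeR adjusted p was 0.0444.

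P4HB, the other subunit of that enzyme, was at 1859 ± 329 and 1547 ± 139.7 CPM, with an adjusted p of 0.603 by edgeR. TMEM38B, an endoplasmic reticulum ion channel needed for type I collagen folding, was at 17.8 ± 6.05 and 8.75 ± 1.85 CPM (log2 fold change 1.03 ± 0.24, adjusted p of 0.108 by edgeR and 0.00857 by DESeq2), and was chosen after its values were seen. Without SEFA-6179 replicate 3, its edgeR adjusted p was 0.0178. SERPINH1, the collagen chaperone HSP47, also chosen after its values were seen, was at 71.5 ± 19.9 and 82.5 ± 18.3 CPM. At an unadjusted edgeR p below 0.05, 3 genes of the list were lower and 2 higher, beside 5.52% and 5.24% of all tested genes. The 3 lower ones are named here after their values were seen. P3H3, a prolyl 3-hydroxylase family gene, was at 1.98 ± 0.408 and 3.68 ± 1.61 CPM (log2 fold change -0.89 ± 0.32, edgeR adjusted p of 0.308). P3H4, of the same family, was at 2.28 ± 0.733 and 3.57 ± 1.12 CPM (-0.65 ± 0.29, edgeR adjusted p of 0.447). FKBP10, a collagen chaperone, was at 4.18 ± 1.78 and 6.77 ± 1.82 CPM (-0.69 ± 0.28, edgeR adjusted p of 0.376), with 4 of 5 SEFA-6179 livers below all MCT livers.

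Propeptide processing and crosslinking genes had 8 of 11 tested members below 0 and a median of -0.12. At an unadjusted edgeR p below 0.05, 3 of them were lower and 0 higher, beside 5.52% and 5.24% of all tested genes. ADAMTS2, which removes the amino propeptide of types I and III, was at 5.70 ± 1.499 CPM with SEFA-6179 and 8.96 ± 1.99 with MCT (log2 fold change -0.65 ± 0.22, edgeR adjusted p of 0.283). BMP1, the carboxyl propeptidase, was at 50.2 ± 4.70 and 42.2 ± 7.13 CPM. Degradation genes had 8 of 12 below 0 and a median of -0.23, with 1 lower and 1 higher at an unadjusted edgeR p below 0.05. The higher one, MMP3, is named after its values were seen. It was at 3.08 ± 2.39 and 1.14 ± 0.899 CPM (log2 fold change 1.42 ± 0.65, edgeR adjusted p of 0.458). FAP, a fibroblast protease that trims cleaved collagen, was at 7.40 ± 1.89 and 12.0 ± 2.45 CPM (edgeR adjusted p of 0.204), and CTSB, the lysosomal cathepsin B, was at 392 ± 95.4 and 514 ± 107 CPM.

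Collagen-binding matrix proteins had 21 of 23 tested members below 0, with a median of -0.19. Of these edgeR called 0, beside 0.219% of all tested genes in either direction. At an unadjusted edgeR p below 0.05, 2 of them and 4 basement membrane partners were lower and 0 higher. Of all tested genes, 5.52% were lower and 5.24% higher at that level. MFAP4, a microfibril protein that binds collagen and elastin, was at 52.4 ± 5.96 CPM with SEFA-6179 and 75.1 ± 14.6 with MCT, a log2 fold change of -0.52 ± 0.15 and an edgeR adjusted p of 0.217. FN1, fibronectin, was the most abundant at 2788 ± 402 and 2997 ± 944 CPM. Basement membrane partners had 13 of 19 below 0 and a median of -0.13, with LAMC1, the gamma chain of most laminins, at 36.9 ± 5.99 and 50.4 ± 5.45 CPM (-0.45 ± 0.14, edgeR adjusted p of 0.218). NID1, which links laminin to type IV collagen, was at 281 ± 66.8 and 238 ± 67.2 CPM.

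Receptors and the upstream growth factor axis gave 0 calls by edgeR, beside 0.219% of all tested genes in either direction. At an unadjusted edgeR p below 0.05, 0 receptors were lower and 1 higher. In the growth factor list 4 were lower and 1 higher, beside 5.52% and 5.24% of all tested genes. Collagen receptors had 8 of 15 below 0 and a median of -0.01. MRC1, an endocytic mannose receptor that takes up collagen, was at 106 ± 17.3 and 77.8 ± 24.3 CPM (edgeR adjusted p of 0.411), and CD36, a scavenger receptor, was at 232 ± 50.3 and 201 ± 43.8 CPM. The TGF-beta and PDGF list, whose products drive collagen transcription, had 17 of 28 below 0 and a median of -0.15. SP1, a factor that binds collagen promoters, was at 23.5 ± 7.25 and 37.6 ± 8.31 CPM (-0.67 ± 0.23, edgeR adjusted p of 0.283), and TGFBR2, a TGF-beta receptor, was at 80.5 ± 13.9 and 69.2 ± 6.78 CPM.

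**Figure D5:**
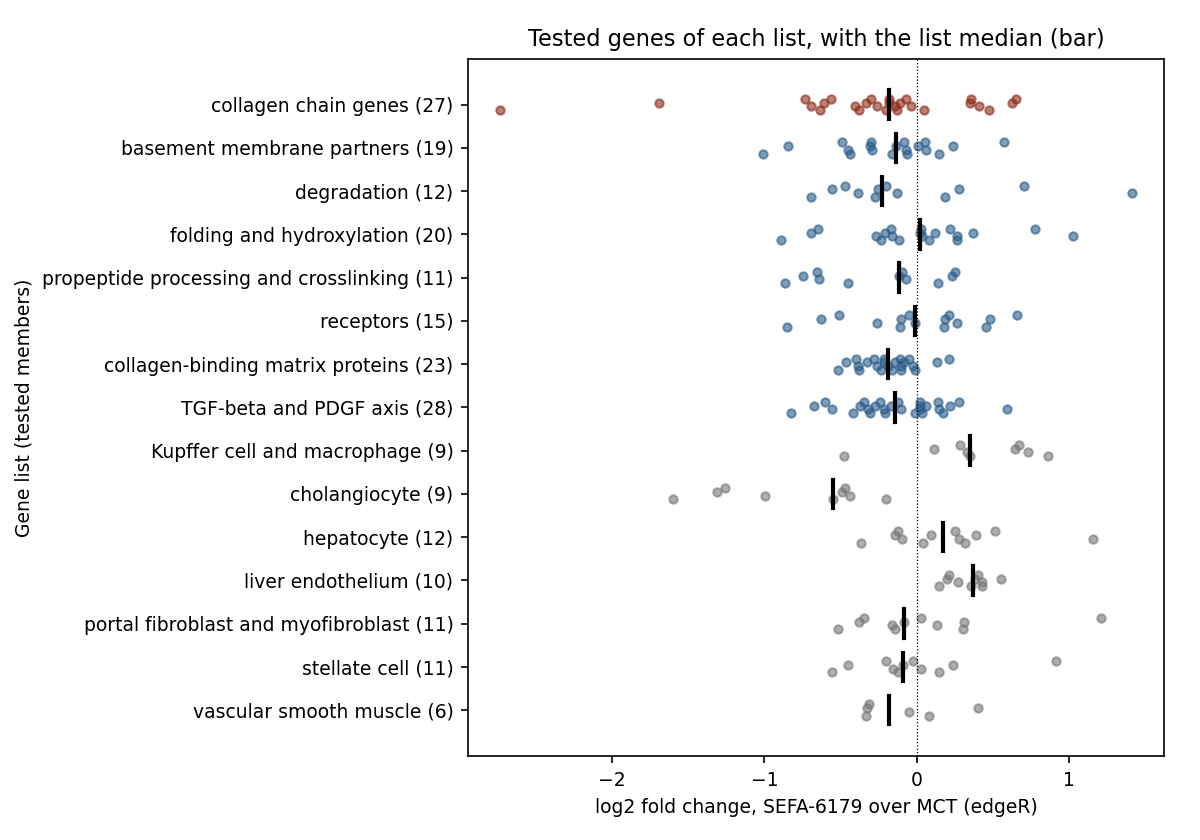
edgeR log2 fold changes, SEFA-6179 over MCT, of the tested genes of each list (points, number tested in brackets) with the list median as a bar: collagen chain genes in red, collagen partner lists in blue and cell type marker lists in grey. The collagen median is at -0.18, that of the bile duct markers at -0.55 and that of the endothelial markers at 0.37.

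The stellate and portal marker lists, of cells that make collagen, each had a median of -0.09 and members on both sides of 0. In both lists 0 genes were called by edgeR or DESeq2, beside 0.219% and 2.06% of their tested genes in either direction. At an unadjusted edgeR p below 0.05 each held 1 lower and 1 higher gene, beside 5.52% lower and 5.24% higher over all tested genes. The stellate cell list had 7 of 11 tested genes below 0 and a median of -0.09, and its summed level was 248 to 356 CPM with SEFA-6179 and 274 to 400 CPM with MCT. DES, the desmin gene, was at 20.8 ± 2.92 and 28.4 ± 7.14 CPM (edgeR adjusted p of 0.331), and ECM1, a secreted matrix protein of quiescent stellate cells, was at 70.6 ± 11.9 and 71.8 ± 17.2 CPM. RGS5, a regulator of G protein signalling, named after its values were seen, was higher in mean, at 18.7 ± 9.15 and 9.87 ± 4.43 CPM (log2 fold change 0.92 ± 0.35, edgeR adjusted p of 0.341). Portal fibroblast and myofibroblast markers had 6 of 11 below 0, a median of -0.09 and sums of 223 to 290 and 196 to 353 CPM. MFAP4 had the smallest p and the highest mean count of that list. It was lower in mean, at 52.4 ± 5.96 and 75.1 ± 14.6 CPM (-0.52 ± 0.15, edgeR adjusted p of 0.217). GLI1, a Hedgehog pathway factor, like RGS5 named after its values were seen, was higher in mean, at 5.57 ± 2.14 and 2.40 ± 1.39 CPM (1.21 ± 0.39, edgeR adjusted p of 0.264). Vascular smooth muscle markers had 4 of 6 below 0 and a median of -0.18, with the contractile protein gene SMTN at 63.7 ± 7.20 and 79.3 ± 12.0 CPM (edgeR adjusted p of 0.411).

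Markers of other liver cells are given beside the collagen values, and their part in them was not tested. By edgeR 0 genes of the cholangiocyte, endothelial, macrophage and hepatocyte lists were called, beside 0.219% of all tested genes in either direction. DESeq2 called 3 cholangiocyte genes and 1 hepatocyte gene, beside 2.06% of its tested genes in either direction. At an unadjusted edgeR p below 0.05 there were 4 lower cholangiocyte genes, 3 higher endothelial genes and 1 higher hepatocyte gene. Of all tested genes, 5.52% were lower and 5.24% higher at that level. All 9 tested cholangiocyte markers, of the bile duct epithelium, were below 0, with a median of -0.55 and sums of 173 to 277 CPM with SEFA-6179 and 194 to 488 CPM with MCT. Their lowest p was that of CD24, a surface glycoprotein, at 3.39 ± 1.19 and 8.43 ± 1.97 CPM (log2 fold change -1.31 ± 0.25, adjusted p of 0.0539 by edgeR and 0.000269 by DESeq2), and CLDN4, a tight junction gene, was at 142 ± 16.6 and 193 ± 71.6 CPM. CD24 passed the edgeR threshold without the low-count filter (0.0349) and without MCT replicate 6 (0.0374).

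All 10 tested liver endothelial markers were above 0, with a median of 0.37 and sums of 506 to 963 and 422 to 845 CPM. VWF, the von Willebrand factor, was at 52.4 ± 7.94 and 35.8 ± 14.4 CPM (edgeR adjusted p of 0.397), and STAB1, a scavenger receptor of sinusoids, was at 179 ± 70.4 and 135 ± 38.4 CPM. Macrophage markers had 8 of 9 above 0 and a median of 0.35, with sums from 62.6 to 2352 and from 212 to 1363 CPM. C1QA was at 296 ± 200.1 and 163 ± 101 CPM (edgeR adjusted p of 0.717) and C1QC, another complement subunit, at 286 ± 195 and 172 ± 109 CPM, and both had a log2 fold change below 0 by limma.

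Hepatocyte markers had 8 of 12 above 0 and a median of 0.17. APOA2, an apolipoprotein of HDL, was at 1043 ± 456 and 467 ± 124 CPM (adjusted p of 0.123 by edgeR and 0.00433 by DESeq2). Of the 7 mesothelial markers 0 were tested and 2, WT1 and PDPN, were in the table under those names, with a summed level of at most 0.569 CPM.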

How the data were processed

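Liver RNA of 5 SEFA-6179 and 6 MCT piglets was analysed from 1 deposited gene table. Per the file headers it gives a raw read count, an FPKM value and a normalized signal per gene and library, and for the comparison the authors' log2 fold change, p-value and adjusted p-value. Within a library the deposited signal is a constant multiple of the count, and the deposited FPKM is a constant multiple of that signal divided by gene length. Tools named in the submitters' processing notes, with no role, are DESeq2 1.20.0, featureCounts 1.5.0-p3, HISAT2 2.0.5 and StringTie 1.3.3b. The sources used here give no genome build, annotation release or strand setting. The table names 14022 genes, and a reference list 779 more.

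The deposited counts went through edgeR 4.0.16 (R 4.3.3) with filterByExpr at a minimum count of 10, TMM scaling and a robust two-sided quasi-likelihood test on the 11 libraries. P-values were adjusted by Benjamini-Hochberg, and the threshold was 0.05. The SE of a log2 fold change was derived from the F statistic. The test was first run on simulated counts. It recovered 45 of 100 genes changed by a log2 size of 1 and 91 of 100 changed by 2, with 5 false calls among 141. The changed genes were drawn only from those with a mean above 1 CPM. These rates therefore do not hold for scarcer chains or for smaller changes. P-values of group differences set the difference against the spread between these samples. Depth was 15974977 to 23416071 counts. Levels between genes are FPKM, all others CPM. Ratios (0.5 counts added) were tested by exact permutation over libraries and correlations of log2 CPM (prior count 2) with 100000 resamples, in Python 3.11.15 with scipy 1.17.1. Share intervals are Wilson 95% intervals.

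The members, gene lists and alternatives were chosen with earlier results of these data known. Values by library are given for members past the threshold, the 3 with the highest FPKM in each class, the 3 with the smallest p, the largest rise and fall among members with a mean count of at least 10, and partner chains of those. Each list names its genes past the threshold, otherwise that with the smallest p, and that with the highest mean count. Alternatives were other size factors (DESeq2), no filter or a filter at a mean count of 50, the Wald test of DESeq2 1.42.0, limma 3.58.1 with library weights, a replicate block, each library left out, 2 libraries left out together, EIF1AY as a covariate, other pseudocounts for the ratios and a level per length from TMM CPM.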

Additional observations from a re-analysis of the deposited data

Results flagged for a closer look

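Among 82 groups of 5 or 6 livers, 8 held 1 liver whose gap to its nearest neighbour was large for the range of its group by Dixon's criterion. Chance gives about 1 in 20 such groups, here 4.1, if values are normal and groups independent. The flagged shares of counts hold many of the same reads, and some flagged genes had few counts. The 8 and the 4.1 can therefore not be compared as a test.

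COL11A2, of cartilage type XI collagen, reached 7.15 CPM in SEFA-6179 replicate 5, with the rest of that group at 0 to 0.672. In MCT replicate 6 it reached 6.09 CPM, with the rest at 0 to 0.521. COL6A6, an alternative type VI chain, reached 2.48 CPM in SEFA-6179 replicate 2 and was at 0.0568 to 0.246 CPM in the other 4. COL8A1 was at 1.14 CPM in SEFA-6179 replicate 3, the others being at 0.370 to 0.568. COL14A1 was at 54.2 CPM in MCT replicate 6 and at 42.2 to 45.4 CPM in the other 5 MCT livers. COL18A1 was at 1069 CPM in MCT replicate 2, far under the 1906 to 2340 CPM of the other 5.

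SEFA-6179 replicate 1 stood above its group in the share of counts from fibrillar chains, at 0.0765% (Wilson 95% interval 0.0752 to 0.0778) against 0.0459 to 0.0532%. Its share for COL1A1, COL1A2 and COL3A1 was 0.0653% (0.0641 to 0.0665), where the other 4 were at 0.0369 to 0.0441%. Without that liver the ratio of the mean shares of these chains, SEFA-6179 over MCT, was 0.591 in place of 0.662.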

How the results depend on the processing

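Over all tested genes edgeR called 30, DESeq2 276, limma with library weights 62, edgeR without MCT replicate 5 and SEFA-6179 replicate 4 together 1, and edgeR with EIF1AY as a covariate 6. Leaving out 1 library gave 0 (without SEFA-6179 replicate 5 or MCT replicate 4, with 1184 and 1258 genes at an unadjusted p below 0.05) to 53 (without SEFA-6179 replicate 3), with 1 when MCT replicate 1 was dropped, 16 for MCT replicate 3, and 9 for SEFA-6179 replicate 1 or MCT replicate 2. Collagen chain genes called were 2 by DESeq2 and 0 under every other setting. Of the same 27 genes between 17 and 22 were below 0, and with the filter at a mean count of 50 it was 15 of 19. Their median ran from -0.29 (without SEFA-6179 replicate 1) to -0.13 (without SEFA-6179 replicate 3). Without a low-count filter the median over all members fitted was -0.126. Without a low-count filter the median of the chains outside the 3 main classes was 0.048, over more genes.

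With the replicate block over 10 libraries 8 genes were called in all and 0 collagen chain genes, with a collagen median of -0.20. Deviations of same-numbered libraries correlated at -0.149 to 0.202, and only replicate 3 matched its own number best, so the numbers were not read as pairs.

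Some values changed sign, none of them called. COL18A1 ran from -0.071 to 0.12 without 1 library. COL4A5 was 0.046 with the block, 0.022 with EIF1AY and -0.25 to 0.032 without 1 library. ECM1 was 0.056 by limma, 0.045 with the block, 0.17 without the 2 libraries and -0.10 to 0.096 without 1. FN1 ran from -0.22 to 0.020 without 1 library. C1QA, at 0.86, was -0.039 by limma, and C1QC, at 0.73, was -0.21. The difference in log2 ratio of COL1A1 to COL1A2 was -0.098 to 0.065 without 1 library. The cause was not tested. Low counts limit COL8A1 and the minor chains.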
